A study of Mus musculus with 18 samples.

Results

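The genes described here mark T cells and natural killer cells: Cd3d, which encodes the delta chain of the CD3 complex, Klrd1, which encodes the lectin-like receptor CD94, and the variable (V) segments of the T cell receptor genes. Cd3d and Klrd1 had 1 probe each that the study names. V probes were taken by their names on the array, and a V probe was included when its detection score was over 0.95 on at least 5 of the 18 arrays. Of 51 V probes on the array, 7 met this rule, so that 9 of 46624 probes are described. They are Cd3d, Klrd1, TRAV6-1 of the alpha chain locus, TRBV1, TRBV7, TRBV11 and TRBV12-2 of the beta chain locus, and TRGV4 and TRGV6 of the gamma chain locus.

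A T cell recognises its target through a receptor of 2 chains, alpha with beta or gamma with delta, which reaches the cell surface only together with the CD3 chains. During development each T cell joins 1 of many V segments to the rest of a receptor chain gene. A probe for 1 V segment is therefore meant to report only those T cells that chose it, while Cd3d is used by T cells of every kind. Whether the signal of each V probe here comes from receptor transcripts of T cells was not tested. CD94 pairs with a member of the NKG2 family on natural killer cells and on some T cells, where it reads a non-classical MHC class I molecule. T cells and natural killer cells both enter the wall of atherosclerotic and aneurysmal arteries.

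The arrays hold whole aortas (arch to iliac bifurcation) of male ApoE-/- mice, which lack apolipoprotein E and carry high blood lipids. Infusion by minipump began at 13 to 14 weeks of age and lasted 4 weeks. The AAA group (n = 5) received angiotensin II at 1.44 µg/kg/min and developed an abdominal aortic aneurysm, the no AAA group (n = 7, aneurysm resistant) received the same dose and did not, and the saline controls (n = 6) received saline. Each array holds RNA of 1 aorta, and no RNA was pooled. All groups are ApoE-/-, and the infused mice were sorted by outcome, so that aneurysm was not assigned.

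Levels are log2 of the signal over the median signal of the array. The arrays detected between 40.0 and 45.2% of their probes, and the median signal, which is 0 on this scale, lay near background. Tests used limma on the 21434 probes with detection on 5 arrays or more, with p values adjusted by Benjamini-Hochberg over all of these, and a call is an adjusted p under 0.05. BeadChip 1 carried the saline arrays and BeadChip 2 no AAA 1 to 6. No AAA 7 was on BeadChip 3 with the 5 AAA arrays. A difference from saline and a difference between BeadChips therefore cannot be told apart. Only no AAA 7 shares a BeadChip with AAA arrays, so AAA against no AAA is also largely bound up with BeadChip. Of the smooth muscle markers with a named probe, Acta2, Cald1, Kcnmb1 and Synpo2 were detected on all 18 arrays. In whole tissue, fewer cells of a type and less RNA per cell cannot be told apart. One array stood apart in the genes described here: saline 2. It is therefore given by name below, and values without it stand beside the tests of Cd3d, Tcra and Klrd1.

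The Cd3d gene lies at chr9:44981769-44987052 (GRCm38.p6) and Klrd1 at chr6:129588092-129598775. The 300 bases around a Cd3d start site, 250 before and 50 after, are shown because Cd3d is the 1 gene common to all T cells among the 9 and the only one of them with an entry in the RefSeq promoter table used here. Capitals mark matches on either strand to AGGAAG, a core of ETS factor sites, and to CTTTGA, a core of TCF and LEF factor sites. The stretch is chr9:44981536-44981835 on the plus strand.
Cd3d: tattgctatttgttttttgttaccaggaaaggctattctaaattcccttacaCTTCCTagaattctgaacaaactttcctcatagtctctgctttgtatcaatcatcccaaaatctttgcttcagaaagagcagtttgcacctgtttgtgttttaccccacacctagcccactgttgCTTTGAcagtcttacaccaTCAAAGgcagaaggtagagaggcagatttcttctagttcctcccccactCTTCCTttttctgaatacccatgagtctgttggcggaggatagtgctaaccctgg
It holds 2 matches to AGGAAG, at -198 and -5 from the start, and 2 to CTTTGA, at -73 and -54 (first base of each match). Of 32851 mouse promoters of the same length, 35.4% hold AGGAAG and 16% CTTTGA. The RUNX core TGTGGT, held by 16.8% of promoters, had no match in this window. Nor did the GATA core AGATAA, which 11.2% of promoters hold, or the Ikaros core TGGGAA, which 25.6% hold. A match to 6 letters is a description and does not show that a factor binds.

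In AAA the Cd3d level was 2.10, 1.80, 2.35, 2.12 and 1.75 on arrays 1 to 5. The no AAA arrays ran from 0.03 (no AAA 7, the only array on which Cd3d was not detected) over a median of 0.96 to 1.64. Every AAA array therefore lay above every no AAA array. Saline arrays had a lowest level of 0.41, a median of 0.90 and a highest of 3.37. That highest value was saline 2, above all other 17 arrays and 3.91 times the next saline array (1.40). The other 5 saline arrays lay below all AAA arrays.

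The mean Cd3d level was 2.02 (SD 0.25, n = 5) in AAA, 1.01 (SD 0.54, n = 7) in no AAA and 1.24 (SD 1.1, n = 6) in saline controls. Cd3d was 2.02-fold higher in AAA than in no AAA, a difference of 1.02 (SE 0.38), which missed the threshold (adjusted p = 0.069 from limma). Against saline the difference was 0.78 (SE 0.40, adjusted p = 0.13), and between no AAA and saline it was -0.24 (SE 0.36, adjusted p = 0.62). The fit takes 1 spread per probe from all groups, so saline 2 entered the error of the AAA against no AAA comparison as well. Without saline 2 the same difference of 1.02 had an SE of 0.23 and passed (adjusted p = 0.0047), and AAA against saline became 1.20 (SE 0.25, adjusted p = 0.00097). No AAA against saline turned to 0.19 without it (SE 0.23, adjusted p = 0.54). With only the AAA and no AAA arrays in the fit it also passed (adjusted p = 0.010).

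Tcra, a symbol for the T cell receptor alpha chain gene, had a pattern close to that of Cd3d. Which part of the gene its probe reads is not known here. Its level in AAA was 1.25, 0.85, 1.53, 1.33 and 1.13. No AAA arrays lay between -0.31 and 0.39 (mean 0.16, SD 0.23, n = 7), and Tcra was detected on 4 of them. In saline it was detected on saline 2 (1.84) and saline 4 (0.48) alone. The Tcra level of AAA exceeded that of no AAA by 1.06 (SE 0.23, adjusted p = 0.0039 from limma) and that of saline by 0.75 (SE 0.24, adjusted p = 0.019), which was 1.02 (SE 0.13, adjusted p = 1.88e-05) without saline 2. Between no AAA and saline the difference was -0.31 (SE 0.22, adjusted p = 0.26), and -0.04 without saline 2 (SE 0.12, adjusted p = 0.84).

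**Figure D1:**
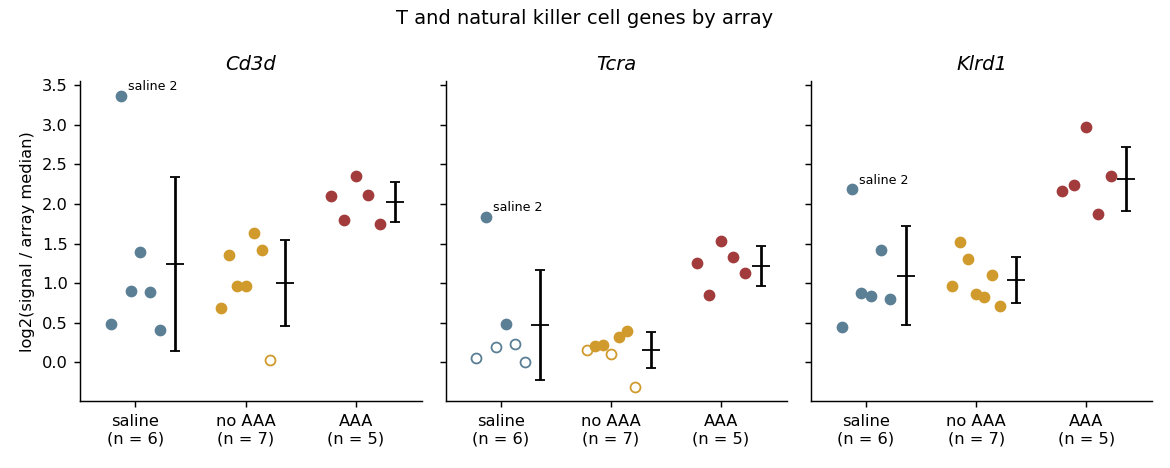
Level of Cd3d, Tcra and Klrd1 (log2 of signal over array median, vertical axis) on each array, by group. Filled points are detected, open points are not, and bars give mean and SD. The AAA arrays lay above all no AAA arrays for each gene, and saline 2 was the highest of all arrays for Cd3d (3.37) and Tcra (1.84).

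Klrd1 was detected on all 18 arrays. Its level in AAA was 2.16, 2.24, 2.97, 1.87 and 2.35 on arrays 1 to 5. No AAA arrays had a lowest level of 0.71, a median of 0.97 and a highest of 1.52, and saline arrays 0.44, 0.86 and 2.19. Here, too, every AAA array lay above every no AAA array. The highest saline array was again saline 2, but 3 of the 5 AAA arrays lay above it, and it was 1.71 times the next saline array. Klrd1 was upregulated in AAA against no AAA by 1.28 (2.42-fold, SE 0.24, adjusted p = 0.0014 from limma) and against saline controls by 1.22 (2.34-fold, SE 0.25, adjusted p = 0.00073). The means were 2.32 (SD 0.40, n = 5), 1.04 (SD 0.29, n = 7) and 1.09 (SD 0.62, n = 6). No AAA and saline differed by -0.05 (SE 0.23, 95% interval -0.53 to 0.43, adjusted p = 0.87). Both calls stayed past the threshold without saline 2, where AAA against saline was 1.44 (SE 0.20, adjusted p = 3.11e-05). No AAA against saline was 0.17 without it (SE 0.19, adjusted p = 0.49). Within BeadChip 3, AAA 1 to 5 stood 1.61 above no AAA 7 (adjusted p = 0.13), and Cd3d stood 1.99 above it (adjusted p = 0.076). This comparison rests on the single array no AAA 7, which had the lowest level of both genes in its group.

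Of the 9 probes, 2 were called higher in AAA than in no AAA (Klrd1 and TRGV4) and 0 lower, where 10.8% of all tested probes were called higher and 8.46% lower. At an unadjusted p under 0.05 there were 4, with Cd3d and TRGV6. Cd3d and Klrd1 were the 2 of 9 whose AAA arrays all lay above the no AAA arrays, as did 3.98% of all tested probes. Against saline, 3 of 9 were called higher (Klrd1, TRGV4 and TRGV6) and 0 lower, beside 30.5% and 9.22% of all tested probes. Only TRGV4 had every AAA array above every saline array, which 16.2% of all tested probes did. Between no AAA and saline, 0 of 9 were called in either direction by limma, also 0 at an unadjusted p under 0.05 and 0 by the methods' t-test after adjustment, while 35.0% of all tested probes were called higher and 10.1% lower. The median of all tested probes shifted by 0.13 between AAA and saline and by 0.15 between no AAA and saline, and under quantile normalisation by 0.015 and 0.07. Cd3d and Klrd1 carry names here because the study had listed them as different on these arrays, so their differences are not independent evidence. The V probes were chosen by detection, which is not independent of the groups where a probe was detected mainly in one of them. TRGV6 met the rule through the AAA arrays, with detection on 4 AAA, 1 no AAA and 0 saline arrays. TRGV4 met it through the angiotensin II arrays, with detection on 5 AAA, 5 no AAA and 1 saline array.

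**Figure D2:**
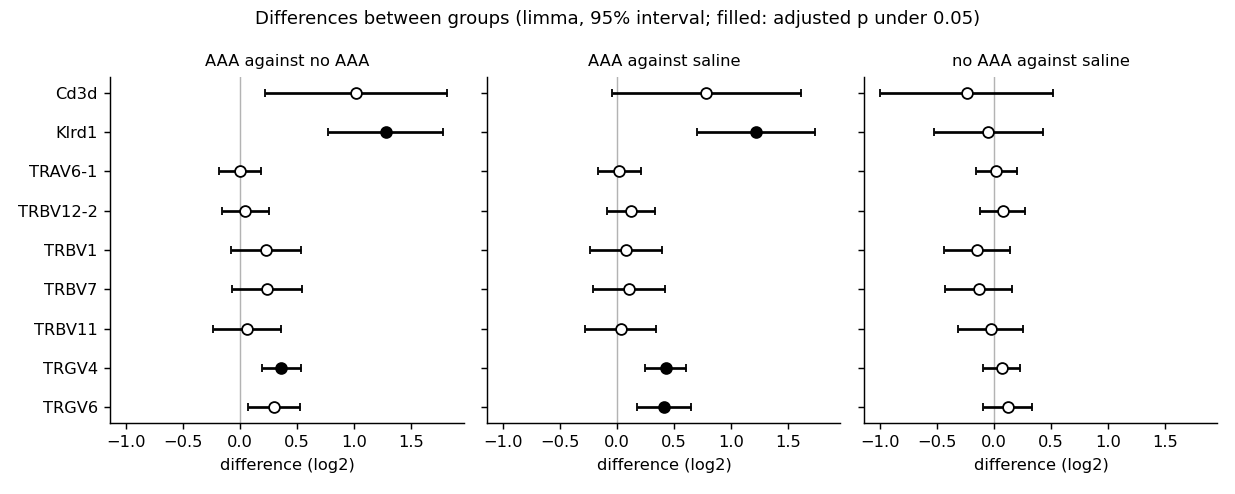
Difference between groups (log2, horizontal axis) for the 9 probes in each comparison, with 95% intervals from limma. Filled points have an adjusted p under 0.05: Klrd1 and TRGV4 in AAA against no AAA, Klrd1, TRGV4 and TRGV6 in AAA against saline, and none in no AAA against saline.

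V segments were at or near background on most arrays. Of the 51 V probes, 37 were detected on no array. Among 21 TRAV probes 1 met the rule, among 22 TRBV probes 4, among 7 TRGV probes 2, and the single TRDV probe, TRDV5, was detected on AAA 5 only. TRAV6-1 and TRBV12-2 were detected on all 18 arrays, TRGV4 on 11, TRBV7 and TRBV11 on 6, and TRBV1 and TRGV6 on 5. Just below the rule were TRAV1, detected on 3 arrays, and TRBV6, detected on 2. A constant region probe, TRGC4, was detected on 0 arrays. Signals of the 7 V probes ran from 88.5 to 249.5, against 124.6 to 1249 for Cd3d and 171.8 to 1008 for Klrd1, on arrays whose median signals were 108.1 to 142.6.

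The number of V probes detected was 2 on each saline array except saline 2, where it was 9. It was 5, 5, 6, 9 and 6 on AAA 1 to 5, and between 2 and 6 on no AAA arrays with a median of 4. Saline 2 thus equalled AAA 4, the highest AAA array. On saline 2, 7 of the 9 were TRBV probes, among them TRBV6 (0.66), TRBV13-1 (0.25) and TRBV31 (0.32), and TRBV13-1 and TRBV31 were detected on no other array. The share of all probes detected had the same order of groups: 40.0 to 42.2% on saline arrays, 41.7 to 44.3% on no AAA arrays and 43.0 to 45.2% on AAA arrays, with AAA 4 the highest. Its part in the number of V probes detected was not tested. Saline 2 departed from that order, with 9 V probes at a share of 41%.

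**Figure D3:**
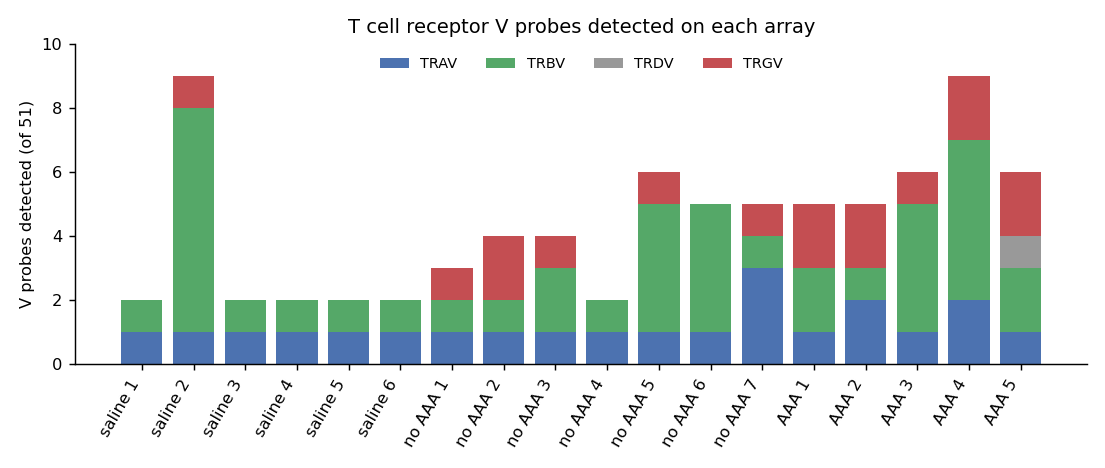
Number of V probes detected on each array (of 51, vertical axis), coloured by locus. Saline 2 and AAA 4 had 9 each, and the other 5 saline arrays had 2 each, TRAV6-1 and TRBV12-2.

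The V probes called between groups were those of the gamma chain, TRGV4 in 2 comparisons and TRGV6 in 1. The call of TRGV6 was favoured by the rule, which it met through AAA arrays, and is no support for a pattern of the gamma chain. TRGV4 met the rule through the angiotensin II arrays, so the rule also favoured its call and its lack of overlap against saline. Both segments lie close together in the T cell receptor gamma locus, TRGV4 at chr13:19184981-19185506 and TRGV6 at chr13:19190368-19190929 (GRCm38.p6, matched by symbol). TRGV4 had levels of 0.87, 0.45, 0.58, 0.70 and 0.35 in AAA and was detected on all 5 arrays. In no AAA it ran from 0.09 over a median of 0.24 to 0.40 and was detected on 5 of 7 arrays. In saline it ran from -0.03 over 0.18 to 0.29 and was detected on saline 2 alone. AAA 5 lay below no AAA 2, so the angiotensin II groups overlapped, while AAA and saline did not. Against no AAA the AAA arrays were higher in TRGV4 by 0.36 (1.28-fold, SE 0.082, adjusted p = 0.0047 from limma) and against saline by 0.43 (1.34-fold, SE 0.085, adjusted p = 0.00058), where 5 of the 6 saline arrays were not above background. Beads of 1 array gave an error of 3.75 to 6.37% of the TRGV4 signal (the study's methods call it a standard error), with 29 to 57 beads per array. The call against no AAA did not hold with the methods' t-test after adjustment (adjusted p = 0.10), nor with BeadChip as a fixed block, where the difference was 0.32 (adjusted p = 0.26).

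TRGV6 had levels of 0.72, 0.23, -0.02, 0.56 and 0.19 in AAA, where AAA 3 alone did not detect it. The no AAA arrays ran from -0.12 over a median of 0.02 to 0.25, with detection on no AAA 2 only, and the saline arrays from -0.29 over -0.05 to 0.15 with detection on 0 of 6. AAA 2, 3 and 5 lay within the range of the no AAA arrays, and AAA 3 within that of the saline arrays. The difference was 0.29 (SE 0.11, adjusted p = 0.065 from limma) against no AAA and 0.41 (SE 0.11, adjusted p = 0.0068) against saline. Since no saline array detected TRGV6, the saline level is only a bound. Set against the faintest detected signals of those arrays, the mean of TRGV6 over all 5 AAA arrays was 1.08-fold higher. AAA 3 entered this mean at its measured level although it did not detect TRGV6, so the value is no strict lower limit. Since TRGV6 met the rule through AAA arrays, these differences and the 1.08-fold value are not independent of the rule. Without AAA 3, the AAA array with the lowest level and no detection, the difference from no AAA was 0.38 and passed (adjusted p = 0.022). Leaving it out removes the array that goes most against the difference, so this pass is no support. With the methods' t-test after adjustment the call against saline ended (adjusted p = 0.088). The other TRGV probes (TRGV1, TRGV2, TRGV3, TRGV5 and TRGV7) were detected on 0 arrays.

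None of the 5 alpha and beta chain probes was called in any comparison by limma. There were also 0 at an unadjusted p under 0.05 and 0 by the methods' t-test after adjustment. Of all tested probes, 10.8% were called higher and 8.46% lower in AAA against no AAA. The shares were 30.5% and 9.22% in AAA against saline, and 35.0% and 10.1% in no AAA against saline. TRAV6-1 (chr14:52638515-52638962) had levels of 0.44, 0.37, 0.52, 0.25 and 0.55 in AAA, with a range of 0.28 to 0.67 over the no AAA arrays and of 0.25 to 0.66 over the saline arrays. Its range over all 18 arrays, 0.42, was the smallest of the 9 probes, and the 95% interval of its difference between AAA and no AAA was -0.19 to 0.19. TRBV12-2 (chr6:41118864-41119364), the brightest V probe, had 0.82, 0.74, 0.83, 0.88 and 0.66 in AAA. Its no AAA arrays lay between 0.56 and 0.96 and its saline arrays between 0.42 and 1.00, the latter on saline 2, and it differed by 0.05 between AAA and no AAA (SE 0.099, interval -0.16 to 0.25). The range of TRBV12-2 over all 18 arrays was 0.58.

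TRBV1 and TRBV7 had the widest ranges of the V probes, 1.08 and 1.06. TRBV1 (chr6:40891296-40891885) had 0.35, -0.10, 0.28, 0.63 and 0.10 in AAA, with no AAA arrays between -0.28 and 0.39 and saline arrays between -0.13 and 0.80. TRBV7 (chr6:41080253-41080654) had 0.14, -0.04, 0.49, 0.52 and 0.16 in AAA, with no AAA arrays between -0.28 and 0.40 and saline arrays between -0.15 and 0.78. For both the highest array was saline 2 and the lowest no AAA 7. The differences between AAA and no AAA were 0.23 (SE 0.15, adjusted p = 0.31 from limma) and 0.24 (SE 0.15, adjusted p = 0.28). TRBV11 (chr6:41106805-41107303) lay between -0.15 and 0.39 on AAA arrays, -0.32 and 0.38 on no AAA arrays and -0.16 and 0.73 on saline arrays, and differed by 0.06 between AAA and no AAA (SE 0.14, adjusted p = 0.82). Over the 7 V probes the median difference was 0.23 in AAA against no AAA, 0.11 in AAA against saline and 0.02 in no AAA against saline, where all tested probes had medians of -0.01, 0.13 and 0.15. These medians are a description, since the rule on detection took in probes such as TRGV6 and TRBV1 (detected on 3 AAA, 1 no AAA and 1 saline array) partly through AAA arrays.

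**Figure D4:**
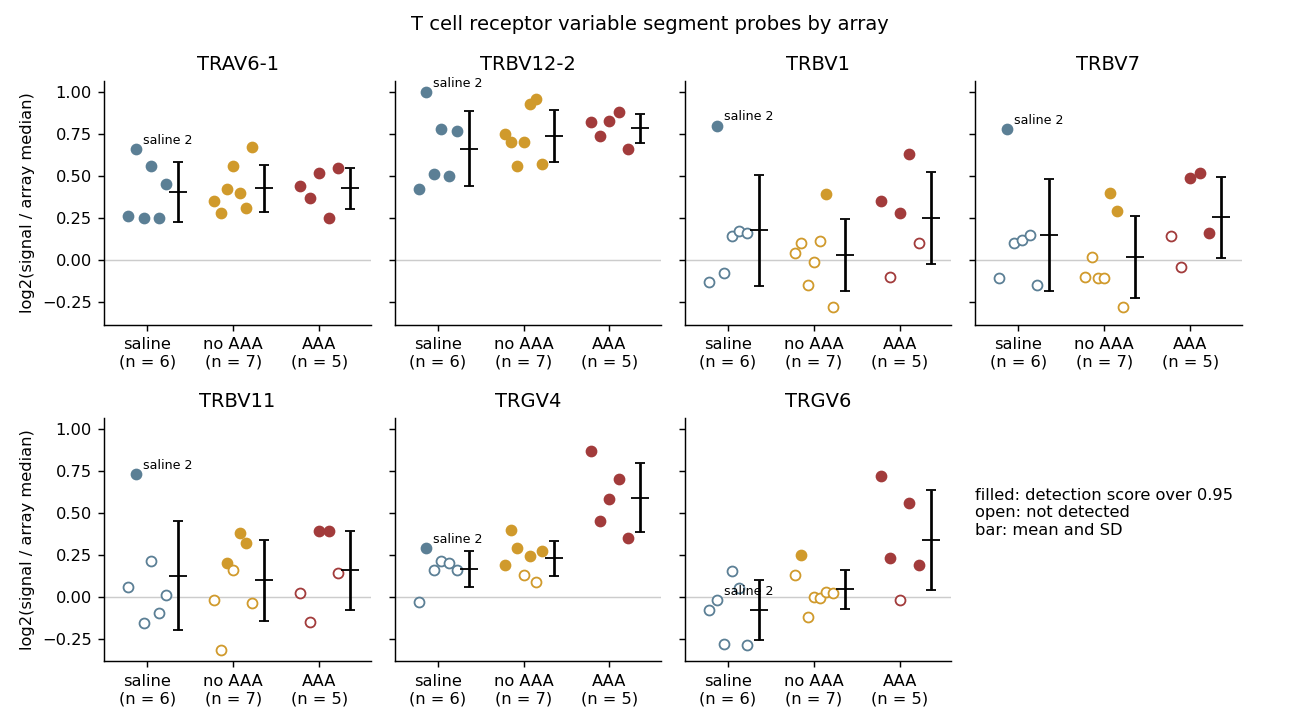
Level of the 7 V probes (log2 of signal over array median, vertical axis) on each array, by group. Filled points are detected, open points are not, and bars give mean and SD. For TRGV4 every AAA array lay above every saline array, for TRGV6 2 of the 5 AAA arrays lay above the highest no AAA array, and in the 3 panels of TRBV1, TRBV7 and TRBV11 saline 2 lay above all other arrays.

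Saline 2 was the highest saline array for 8 of the 9 probes and the highest of all 18 for 5, namely Cd3d, TRBV1, TRBV7, TRBV11 and TRBV12-2. It was not so for the gamma chain: TRGV4 was 0.29 there, below all 5 AAA arrays, and TRGV6 was -0.02. Over all tested probes, 148 were more than 1 log2 unit above every other saline array on saline 2, where saline 1 had 63 and the other 4 had 0 to 14. Genes of B cells were high on the same array. All 7 named B cell markers were highest there among saline arrays, with Igkc, the antibody kappa constant region, at 8.76 (others up to 7.41) and Cd79b, part of the B cell receptor, at 4.40 (others up to 2.76). Their summed level, as multiples of the array median, was 635 on saline 2, 24.4 to 235 on the other saline arrays, 122 to 505 on AAA arrays and 23.9 to 56.7 on no AAA arrays. Such a sum weighs the brightest genes most, here Igkc and Ighm (7.27 on saline 2). Of the macrophage markers, 5 of 7 were highest on saline 2 within saline, with a summed level of 254 against 130 to 197 on the others. The brightest of them was Lyz2 (7.55 on saline 2, other saline arrays up to 7.04). Smooth muscle (40.4, others 34.5 to 51) and fibroblast markers (188, others 167 to 249) lay within the range of the other saline arrays. Their part in the T cell result was not tested.

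**Figure D5:**
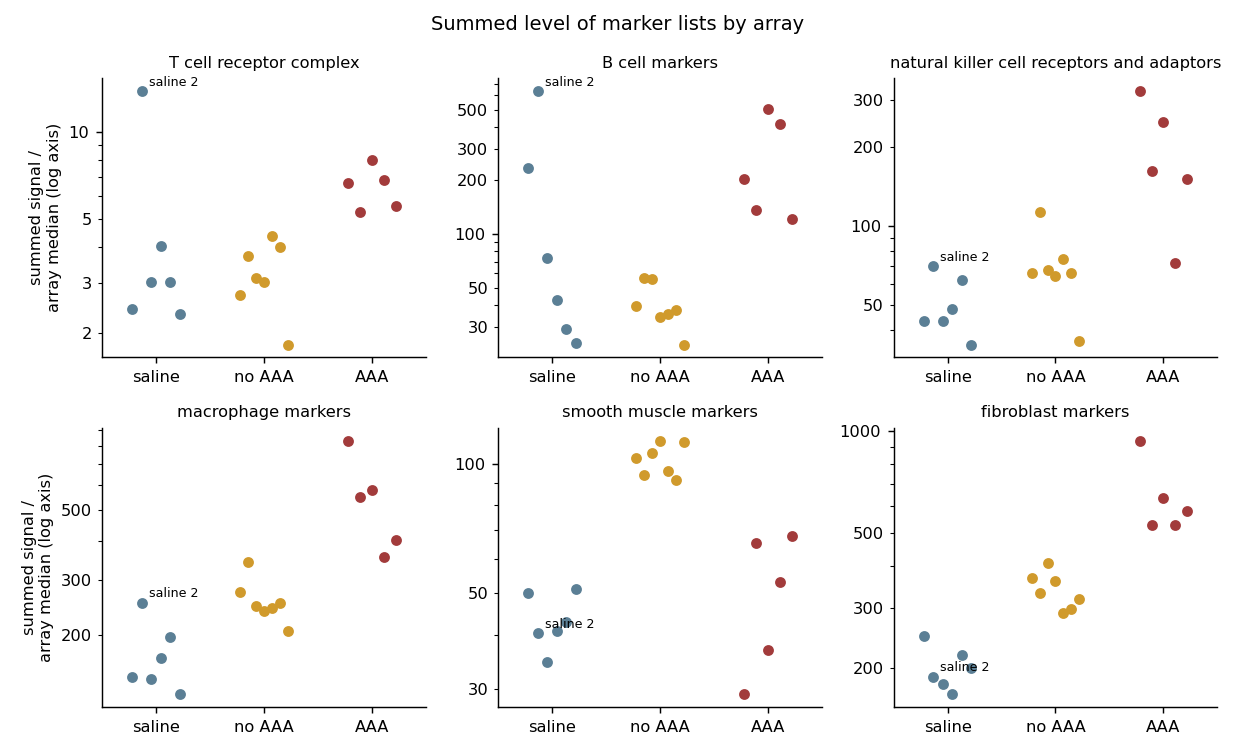
Summed level of the named genes of 6 marker lists on each array (multiples of the array median, log axis), by group, with saline 2 named. Saline 2 was the highest of all arrays for the T cell receptor complex (13.9) and B cell markers (635) and lay among the saline arrays for smooth muscle (40.4) and fibroblast markers (188). Each sum weighs the brightest genes of its list most.

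Other genes of T cells and natural killer cells could be followed only where the study had named a probe, and it had named those it found different. Their counts are therefore not independent evidence. Of all tested probes, 10.8% were called higher and 8.46% lower in AAA than in no AAA, and 30.5% higher in AAA than in saline. In the T cell receptor complex list, 2 of 12 genes had such a probe, Cd3d and Tcra. Of 17 T cell surface genes 3 had one, and AAA was called higher than no AAA for all 3. Thy1, a surface protein of T cells in mice and of fibroblasts as well, was higher by 1.23 (SE 0.25, adjusted p = 0.0024 from limma). Il7r, the receptor for interleukin 7, was higher by 1.22 (SE 0.28, adjusted p = 0.0051) and Il2rg, the receptor chain shared by interleukin 2 and related cytokines, by 1.01 (SE 0.22, adjusted p = 0.0036). Il2rg followed Cd3d in its high level on saline 2 (2.25, others up to 1.06), while Thy1 did not (4.14, others up to 4.29). Il7r was also higher in no AAA than in saline, by 0.87 (SE 0.27, adjusted p = 0.013).

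Of 18 signalling genes downstream of the T cell receptor, 7 could be followed and AAA was called higher than no AAA for all 7 (median difference 1.2). Vav1, a signalling protein of blood cells, was higher by 1.37 (SE 0.23, adjusted p = 0.00076 from limma), Rac2, which acts on the actin skeleton of blood cells, by 1.34 (SE 0.23, adjusted p = 0.00074), Coro1a, an actin-binding protein of leukocytes, by 1.33 (SE 0.26, adjusted p = 0.0017) and Lcp2, the adaptor SLP-76, by 1.20 (SE 0.20, adjusted p = 0.00061). Against saline 6 of 7 were higher. The exception was Jak3, the kinase that signals for Il2rg. Its mean level was 1.74 (SD 0.35, n = 6) in saline, 0.78 (SD 0.20, n = 7) in no AAA and 1.86 (SD 0.28, n = 5) in AAA, so that no AAA minus saline was -0.96 (SE 0.15, adjusted p = 6.05e-05). Vav1, Rac2, Coro1a, Lcp2 and Jak3 are also expressed in other leukocytes. Nfatc4 had the smallest of the 7 differences between AAA and no AAA (0.535), and saline 2 was its lowest array of all 18 (2.15).

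In the natural killer cell list, 9 of 20 genes could be followed, and AAA was called higher for each of them against both no AAA (median 1.2) and saline (median 1.3). Fcer1g, a signalling chain shared by Fc receptors and natural killer receptors, was higher in AAA (against no AAA) by 1.5 (SE 0.38, adjusted p = 0.0087 from limma), Tyrobp, the adaptor DAP12, by 1.28 (SE 0.34, adjusted p = 0.012), and Cd84, a receptor of the SLAM family, by 1.22 (SE 0.30, adjusted p = 0.0069). Fcer1g, Tyrobp and Fcgr3 are myeloid genes as well, so the 9 calls do not speak for natural killer cells alone. The 11 genes of the list without a named probe include the receptors Ncr1, Klrb1c, Klrc1 and Klrk1. The 7 macrophage markers were also higher in AAA in both comparisons, with summed levels of 355 to 830 on AAA arrays, 206 to 341 on no AAA arrays and 130 to 254 on saline arrays. Other cell type markers moved between AAA and no AAA too. B cell markers were called higher for 6 of 7 genes (7 of 7 without saline 2, with Cd79b) and fibroblast markers for 4 of 5 (summed levels 528 to 937 on AAA and 290 to 409 on no AAA arrays). Smooth muscle markers were called lower for 4 of 4 (29.1 to 67.9 on AAA and 91.6 to 113 on no AAA arrays). These markers, too, could be followed only where the study had named a probe it found different. That held for 7 of 10 macrophage, 7 of 11 B cell, 5 of 6 fibroblast and 4 of 8 smooth muscle genes. Their counts are therefore not independent evidence either. The part of these lists in the results for Cd3d, Klrd1 and the lists above was not tested. None of the 12 genes of cytotoxic granules and effectors, such as granzymes and perforin, had a named probe, and they were not analysed here.

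Chemokines that attract T cells and natural killer cells, with their receptors, had a named probe for 12 of 15 genes. AAA was called higher than no AAA for all 12 (median 1.42) and higher than saline for 10, or 11 without saline 2. In no AAA against saline 4 were higher (3 without saline 2) and 1 lower. Of all tested probes 35.0% were called higher and 10.1% lower there, so these counts lie near the share of all probes. The largest differences between AAA and no AAA were those of Ccl21b and Ccl21a, which draw naive T cells into lymphoid tissue and are near-identical copies whose probes may not tell them apart: 1.84 (SE 0.37, adjusted p = 0.0021 from limma) and 1.82 (SE 0.38, adjusted p = 0.0025). Cxcl9, an interferon-induced ligand of CXCR3, was higher by 1.64 (SE 0.18, adjusted p = 7.66e-05) and was the gene called lower between no AAA and saline, at -1.30 (SE 0.17, adjusted p = 1.56e-05). Cxcr4, the receptor for CXCL12, was higher by 1.54 (SE 0.37, adjusted p = 0.0065). Ccl21a and Ccl21b were also high on saline 2, at 5.63 and 5.45, where the other saline arrays reached 4.22 and 3.94.

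Among 1340 other named genes, the 5 whose levels were most like those of Cd3d over the 18 arrays were Tcra (Pearson r = 0.94), Il2rg (0.89), Il4i1 (0.87), Ccl21c (0.86) and Ccl21a (0.86). Over the 17 arrays without saline 2 they had r of 0.92, 0.88, 0.81, 0.89 and 0.89. For Klrd1 they were Irf8 (0.96), Samsn1 (0.95), Gpr171 (0.94), Selplg (0.93) and Cytip (0.93), with 0.95, 0.95, 0.94, 0.94 and 0.93 without saline 2. Cd3d and Klrd1 had r of 0.78 with each other. Of the V probes TRBV7 was most like Cd3d (0.88, and 0.80 without saline 2) and TRGV4 most like Klrd1 (0.74 and 0.78). TRAV6-1 had r of 0.22 with Cd3d and 0.18 with Klrd1, and of -0.06 and 0.08 without saline 2. These values describe arrays that differ in group and share BeadChips, and high values follow where genes share the difference between AAA and the rest.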

How the data were processed

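Whole aorta RNA of 18 mice was measured on Illumina Mouse-6 arrays, 3 BeadChips of 6. The authors used BeadStudio 2 for the bead summary and deposited 1 table, not normalised, with a signal intensity, a detection score, a bead error and bead numbers per probe and array. Bacterial control lines (14) were left out and repeated probes averaged. Another 72 columns of values per array were not used. A matrix of ratio values that the authors deposited was not used either, since 12 of its 18 columns follow the values of another array. Signals were divided by the array median, the chip step in the methods, and expressed as log2. The lowest signal was 43.9, so no floor was needed. Differences were tested with limma 3.58.1 (R 4.3.3, trend, 3 group means, Benjamini-Hochberg adjustment) and the code was tested on simulated data. The number of arrays limits the precision.

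Names of Cd3d, Klrd1 and the other genes came from the study's additional files, V names from the array. Genes were matched to RefSeq (GRCm38.p6) by symbol. Where a gene had several named probes the brightest was used, and up to 4 genes of each list, those with the largest AAA against no AAA difference, are given. Every called V probe, the brightest of each locus, the 2 of largest range and those detected on the fewest and most arrays are named. TRBV11, Tcra, Jak3, Nfatc4, Igkc and Cd79b were named after their values were seen. The members, lists and tests were chosen with earlier results of these data known. Alternatives were quantile and normexp processing, other detection filters, the methods' t-test, array weights, no trend, fewer groups, BeadChip and replicate blocks, and leaving out each array. Figures were drawn with matplotlib 3.10.9 in Python 3.11.15.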

Additional observations from a re-analysis of the deposited data

Results flagged for a closer look

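Saline 2 stood apart from the other saline arrays in 3 of the 27 sets of values looked at (9 probes in 3 groups), by the ratio of its gap to the range of the group (Dixon's 95% value 0.625). Chance marks about 1 in 20 such sets. Cd3d was 3.37 on saline 2 and 1.40 on the next saline array (ratio 0.66), TRBV1 was 0.80 and 0.17 (ratio 0.68), and TRBV7 was 0.78 and 0.15 (ratio 0.68). No array of the AAA or no AAA groups was marked for any of the 9 probes.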

How the results depend on the processing

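Klrd1 passed in AAA against no AAA in 30 of 32 settings and in AAA against saline in 29 of 30. Cd3d passed in AAA against no AAA in 4 of 31 settings and against saline in 1 of 29. One setting gave values of another kind. Normexp correction fitted from the detection scores put the background SD above the median signal on 11 of 18 arrays, and its values carry that error: Klrd1 was 0.89, -0.37 and -1.26 in AAA against no AAA, AAA against saline and no AAA against saline, Cd3d was -0.78 and -1.66 in the last 2, and V probes numbered 0, 0 and 0 higher with 3 lower in no AAA against saline (median -0.33). Against saline in AAA it turned TRAV6-1 (-0.46), TRBV11 (-0.09), TRBV12-2 (-0.58), TRBV1 (-0.02) and TRBV7 (-0.09), and in no AAA it turned TRAV6-1 (-0.37), TRBV12-2 (-0.72) and TRGV4 (-0.13). Normexp fitted to the signals alone, added after seeing the data, turned no value and changed no call. Cd3d in AAA against no AAA passed with the methods' t-test (1.02, adjusted p = 0.0498), with only these 2 groups (1.02, adjusted p = 0.010) and with BeadChip as a fixed block (1.99, adjusted p = 0.0054), which rests on no AAA 7 alone as the control arm, the lowest no AAA array for Cd3d. Klrd1 did not pass within BeadChip 3 (1.61, adjusted p = 0.13). V probes called higher in AAA against no AAA fell from 1 to 0 with the methods' t-test and both BeadChip 3 settings, and to 0 of 2 and 0 of 1 under the stricter filters (all 18 arrays, median 0.02; detection over 0.99, median 0.05), which removed TRGV4. Against saline they fell from 2 to 0 under those filters and to 1 with the methods' t-test. Quantile normalisation turned TRAV6-1 against saline (-0.03 and -0.01), array weights TRAV6-1 (0.03) and Klrd1 in no AAA against saline (0.01). The cause was not tested.

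Leaving out each array in turn, Cd3d ranged from 0.85 to 1.12 in AAA against no AAA, 0.61 to 1.20 in AAA against saline and -0.40 to 0.19 in no AAA against saline, and only leaving out saline 2 made it pass. Klrd1 ranged from 1.11 to 1.39, 1.06 to 1.44 and -0.18 to 0.17, and V probes higher in AAA against no AAA from 1 to 2. Their median ranged from 0.13 to 0.31, 0.05 to 0.20 and -0.01 to 0.09. TRAV6-1 ranged from -0.03 to 0.04, -0.01 to 0.07 and -0.02 to 0.07, TRBV11 from -0.01 to 0.14, -0.03 to 0.15 and -0.09 to 0.09, and TRBV1 in AAA against saline from -0.02 to 0.20. Replicate numbers gave no pairing: deviations of same-numbered arrays correlated between -0.19 and 0.29, and at most 2 arrays of a group correlated best with their own number. With the replicate number as a block, probes called higher in AAA against no AAA fell from 2310 to 1761, Klrd1 was 0.00 in no AAA against saline, TRAV6-1 was 0.04 and -0.02, and no call of the 9 probes changed. Most V probes lie near background, where signal over background limits what can be seen.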
